A study of Homo sapiens with 8 samples.

Results

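Heat shock factors and 2 of their partners were followed across HS578T cells that did or did not carry an HSF2 plasmid and did or did not receive TGF-β1. The genes are those named HSF1, HSF2, HSF4, HSF2BP and HSBP1 in the count table, 5 of 60708 genes, and each name has 1 row. All 5 passed the low-count filter and stand among the 16008 genes tested.

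HS578T is an established human breast cancer cell line with mesenchymal features. Cells were transfected with 25 µg of a plasmid encoding HSF2 (HSF2oe) or green fluorescent protein (Mock), and 24 h later were given assay medium with 10 ng/ml TGF-β1 (TGF-β) or assay medium alone (control) for another 24 h. Poly(A) RNA was sequenced from 2 libraries in each of 4 groups: HSF2oe TGF-β, Mock TGF-β, HSF2oe control and Mock control. Both libraries of each group are described as biological replicates, with no word on whether a number marks a shared culture. One treatment field of the labels names DMSO for all Mock samples and TGF-β1 for all HSF2oe samples, which goes against titles and design text, so the groups were taken from the titles. Every group comes from 1 cell line after transient transfection, and the promoter that drives HSF2 on the plasmid is not given in the sources used here. The comparison of HSF2oe with Mock therefore sets an HSF2 plasmid against a GFP plasmid, with no untransfected cells analysed here.

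Heat shock factors are transcription factors that bind, as trimers, to repeats of the motif GAA in alternating orientation, called heat shock elements. HSF1 is the main activator of chaperone genes after heat or other protein damage. HSF2 binds the same elements, can form mixed trimers with HSF1, and is known for roles in development, in meiosis and in prolonged proteotoxic stress. HSF4 is known for its role in the lens. HSBP1 is a small coiled-coil protein that binds the trimerization domain of HSF1 and dampens its activity. HSF2BP was found as an HSF2-binding protein and, in mouse germ cells, brings BRCA2 to sites of meiotic recombination.

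The annotated promoters of HSF2, HSF4 and HSBP1 were searched for units of heat shock elements. The sequences below are the 250 bases before an annotated start in RefSeq (GRCh38.p14, plus strand for all). The member windows used number 5 and cover HSF2, HSF4 and HSBP1, with none for HSF1 or HSF2BP. They are set beside HSPA6, a heat-inducible HSP70 gene with a heat shock element. Capitals mark GAANNTTC or TTCNNGAA, the paired units of the element. Both motifs read the same on either strand and may overlap each other.
HSF2, chr6:122399301-122399550: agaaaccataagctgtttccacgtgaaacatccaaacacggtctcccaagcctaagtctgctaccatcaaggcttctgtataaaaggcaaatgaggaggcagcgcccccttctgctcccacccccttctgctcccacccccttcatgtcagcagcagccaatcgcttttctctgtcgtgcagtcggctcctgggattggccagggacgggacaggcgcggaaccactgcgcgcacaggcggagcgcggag
HSF4, chr16:67164495-67164744: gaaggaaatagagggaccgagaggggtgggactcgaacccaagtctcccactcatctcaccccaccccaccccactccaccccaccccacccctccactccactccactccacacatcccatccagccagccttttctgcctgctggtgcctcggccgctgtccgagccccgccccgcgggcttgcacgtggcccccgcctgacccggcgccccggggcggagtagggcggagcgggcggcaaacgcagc
HSBP1, chr16:83807728-83807977: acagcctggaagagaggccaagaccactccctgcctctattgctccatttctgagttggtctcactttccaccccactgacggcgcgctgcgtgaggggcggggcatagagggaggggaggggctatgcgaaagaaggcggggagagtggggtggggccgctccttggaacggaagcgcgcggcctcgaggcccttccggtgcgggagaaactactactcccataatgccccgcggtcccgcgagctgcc
HSPA6, chr1:161524290-161524539: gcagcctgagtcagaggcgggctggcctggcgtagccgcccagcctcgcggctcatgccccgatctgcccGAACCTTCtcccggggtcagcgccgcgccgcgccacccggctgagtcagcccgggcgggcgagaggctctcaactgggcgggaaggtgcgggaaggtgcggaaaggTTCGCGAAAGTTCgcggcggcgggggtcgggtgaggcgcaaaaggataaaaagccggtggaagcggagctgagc
None of the 5 member windows held either motif. The HSF2 windows overlap each other, and 1 window is shown per gene. Over all 35116 RefSeq windows of the same length, 11.6% held at least 1 of the motifs, and 0.441% held a run of 3 units (the first motif followed by NNGAA, or the second followed by NNTTC). The HSPA6 window held such a run, formed by overlapping matches that begin 74 and 69 bases before the start. Of the chaperone genes described further on, 34 of 38 were matched to 53 windows, and 37.7% of these windows held a paired motif. A match or its absence is a description of letters and not of binding.

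The libraries held 17427645 to 34336107 counts. In normalised counts per 1e6 (CPM), the 3 counts that an observed 0 still allows came to 0.0851 to 0.195, which covers counting error alone. Values of single genes are CPM after TMM scaling, whose factors ran from 0.857 to 1.01 with TGF-β and from 1.03 to 1.11 in control cells. All 10 mesenchymal and basal markers were measured, with a summed level of 71232 to 75222 CPM in HSF2oe TGF-β, 102675 to 112671 in Mock TGF-β, 47634 to 47718 in HSF2oe control and 54438 to 62552 in Mock control libraries. Of 10 luminal markers 5 passed the filter, with sums of 211 to 233 CPM in HSF2oe TGF-β, 303 to 305 in Mock TGF-β, 225 to 249.96 in HSF2oe control and 274 to 302 in Mock control libraries; PGR was at 0 throughout. Of 10 blood and endothelial markers 5 passed, with sums of 4.52 to 7.96 CPM over all libraries and CD3E and HBB at 0. The sums follow a few abundant genes, and single markers went both ways. In HSF2oe over Mock, 1 of the 10 mesenchymal markers (CD44) was called higher at either treatment, and 4 were called lower with TGF-β and 3 without it. Of the 5 luminal markers tested, 1 (GATA3) was called higher at either treatment, and 2 were called lower with TGF-β and 0 without it. Of all genes tested, this comparison called 9.6% higher and 11.9% lower with TGF-β, and 4.88% and 7.22% without it. TGF-β over control called 4 mesenchymal markers higher and 2 lower (CAV1 and S100A4) in both HSF2oe and Mock cells. Among all genes it called 4.45% higher and 3.82% lower in HSF2oe cells, and 7.32% and 6.5% in Mock cells. The part of these markers in the results on members was not tested.

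HSF2, the gene on the plasmid, lies on the plus strand of chromosome 6 from 122399551 to 122433119 (GRCh38, ENSG00000025156.13), and its level checks the transfection labels. It had 780.3 and 489 CPM in HSF2oe TGF-β libraries, against 5.40 and 5.76 CPM in Mock TGF-β libraries. Without TGF-β it had 937 and 616 CPM in HSF2oe libraries, against 8.36 and 6.44 CPM in Mock libraries. The lowest HSF2oe library thus lay far above the highest Mock library at either treatment, and no library went against its transfection label. HSF2 does not check the treatment labels. HSF2oe cells exceeded Mock cells by 6.83 ± 0.28 log2 units with TGF-β and 6.72 ± 0.27 without it (± gives the standard error of a fold change), a 113-fold and a 106-fold difference. Both passed edgeR's quasi-likelihood test after Benjamini-Hochberg adjustment over all genes (adjusted p = 4.48e-08 and 3.25e-08). By p, HSF2 ranked 1 among all genes tested in both comparisons. Counts of HSF2 hold plasmid and endogenous transcripts together, and in bulk RNA more transfected cells and more HSF2 RNA per transfected cell cannot be told apart.

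**Figure D1:**
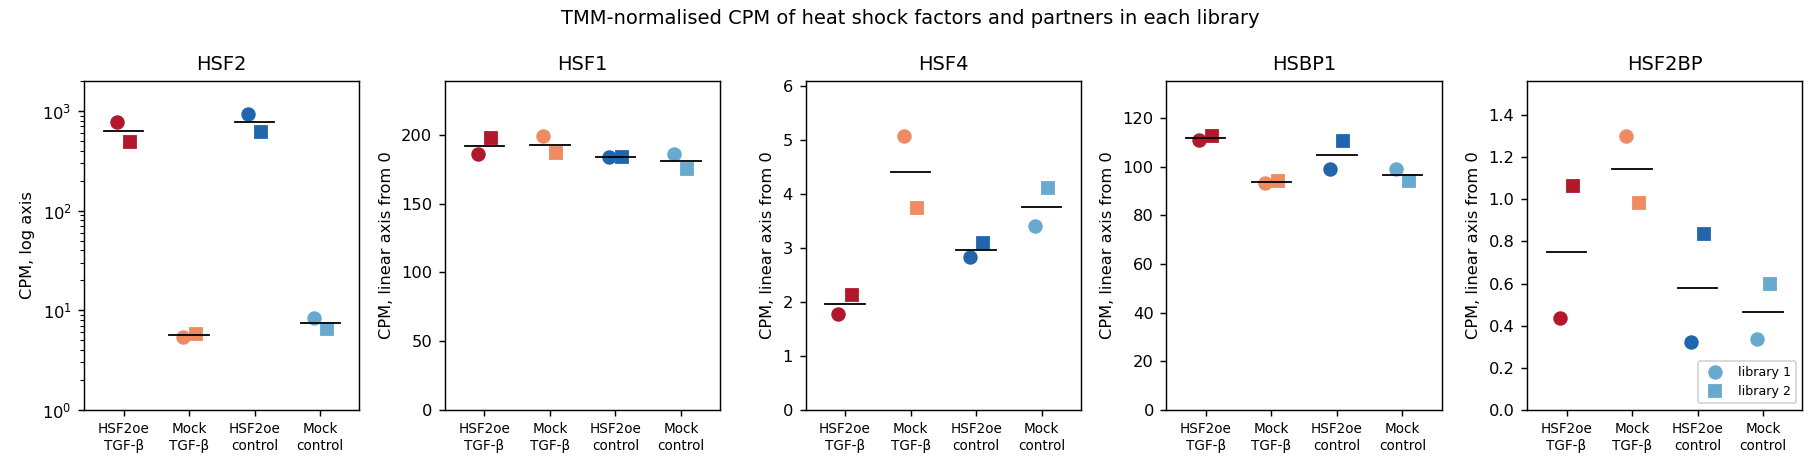
TMM-normalised CPM of the 5 genes in each of the 8 libraries, with a circle for library 1, a square for library 2 and a line at the group mean; HSF2 is on a log axis and the others on linear axes from 0. HSF2 sits between 489 and 937 CPM in the HSF2oe libraries and between 5.40 and 8.36 CPM in the Mock libraries, and HSF4 is lowest in the HSF2oe TGF-β libraries.

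The libraries of an HSF2oe group were themselves unequal in HSF2. Library 1 held 1.59 times the HSF2 level of library 2 with TGF-β and 1.52 times without it. In Mock cells, where the RNA counted should be that of the chromosomal gene, the same ratio was 0.939 with TGF-β and 1.30 without. HSF2 was lower with TGF-β than without it by 0.29 ± 0.21 on the log2 scale in HSF2oe cells and by 0.39 ± 0.28 in Mock cells, and neither difference passed the test (adjusted p = 0.497 and 0.438, same test). In HSF2oe cells the groups overlapped, and in Mock cells both TGF-β libraries lay below both control libraries. The 2 effects of TGF-β differed by 0.10 ± 0.35 (adjusted p = 0.975).

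HSF1 (ENSG00000185122.11, chromosome 8, 144291591 to 144314720, plus strand) kept close to 1 level in all groups. It had 186 and 198 CPM in HSF2oe TGF-β, 199.5 and 187 CPM in Mock TGF-β, 184 and 184 CPM in HSF2oe control and 186 and 176 CPM in Mock control libraries. The ranges of HSF2oe and Mock overlapped with TGF-β, and without it the HSF2oe libraries lay between the Mock libraries. HSF2oe over Mock gave -0.01 ± 0.09 with TGF-β and 0.03 ± 0.09 without it (adjusted p = 0.978 and 0.896). The 95% intervals ran from -0.21 to 0.20 and from -0.17 to 0.23, in log2 units. TGF-β over control gave 0.06 ± 0.09 in HSF2oe cells and 0.09 ± 0.09 in Mock cells (adjusted p = 0.782 and 0.599). Of its exonic bases, 2.58% are shared with genes on the opposite strand.

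HSF4 (ENSG00000102878.18, chromosome 16, 67164681 to 67169945, plus strand) was the family member called lower in HSF2oe cells, with TGF-β but not without it. It had 57 and 50 counts, or 1.77 and 2.13 CPM, in HSF2oe TGF-β libraries, against 78 and 76 counts, or 5.08 and 3.74 CPM, in Mock TGF-β libraries. In control medium it had 2.83 and 3.10 CPM in HSF2oe libraries, against 3.41 and 4.11 CPM in Mock libraries. At both treatments every HSF2oe library lay below every Mock library. Relative to Mock, HSF2oe gave a log2 change of -1.17 ± 0.25 with TGF-β (adjusted p = 0.00568, same test), a call lost without HSF2oe TGF-β library 1 (-1.02, adjusted p = 0.0616). It was -0.35 ± 0.23 without TGF-β and did not pass (adjusted p = 0.363). Averaged over treatments HSF4 fell by 0.76 ± 0.17 on the log2 scale (adjusted p = 0.00438). TGF-β over control gave -0.61 ± 0.25 in HSF2oe cells and 0.21 ± 0.24 in Mock cells, neither past the threshold (adjusted p = 0.181 and 0.647). The difference between these effects, -0.82 ± 0.34, had an unadjusted p of 0.0319 and an adjusted p of 0.805 over all genes. By that test 0 of the 16008 genes were called, and HSF4 ranked 630 among them by p. HSF4 shares 27.1% of its exonic bases with RP11-5A19.5 on the same strand, which had 1 to 17 counts per library.

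HSBP1 (ENSG00000230989.7, chromosome 16, 83807978 to 83819737, plus strand) was slightly higher in HSF2oe cells. It had 111 and 113 CPM in HSF2oe TGF-β libraries, against 93.1 and 94.2 CPM in Mock TGF-β libraries. Without TGF-β it had 99.1 and 111 CPM in HSF2oe libraries, against 99.1 and 94.0 CPM in Mock libraries. With TGF-β the groups did not overlap, while without it HSF2oe library 1 and Mock library 1 were almost level. HSF2oe over Mock gave 0.26 ± 0.10 with TGF-β and 0.12 ± 0.09 without it, and neither passed (adjusted p = 0.0726 and 0.447). The average over treatments was 0.19 ± 0.07, just past the threshold (adjusted p = 0.0461), a call lost without any single library other than HSF2oe control 1 (0.16 to 0.21, adjusted p = 0.0667 to 0.146) and by DESeq2 (adjusted p = 0.0578). TGF-β over control gave 0.09 ± 0.09 in HSF2oe cells and -0.04 ± 0.10 in Mock cells (adjusted p = 0.668 and 0.837).

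HSF2BP (ENSG00000160207.9, chromosome 21, 43529186 to 43659488, minus strand) was near the lower end of what these libraries can measure. It had 14 and 25 counts in HSF2oe TGF-β libraries, against 20 and 20 counts in Mock TGF-β libraries. In control medium it had 10 and 27 counts in HSF2oe libraries, against 9 and 21 counts in Mock libraries. In CPM the HSF2oe TGF-β libraries had 0.436 and 1.07 and the Mock TGF-β libraries 1.30 and 0.984, while the HSF2oe control libraries had 0.321 and 0.837 and the Mock control libraries 0.337 and 0.596. TGF-β over control gave 0.33 ± 0.59 in HSF2oe cells, where the groups overlapped, and 1.25 ± 0.61 in Mock cells, where they did not (adjusted p = 0.832 and 0.223). HSF2oe over Mock gave -0.63 ± 0.59 with TGF-β and 0.29 ± 0.61 without it (adjusted p = 0.491 and 0.806).

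**Figure D2:**
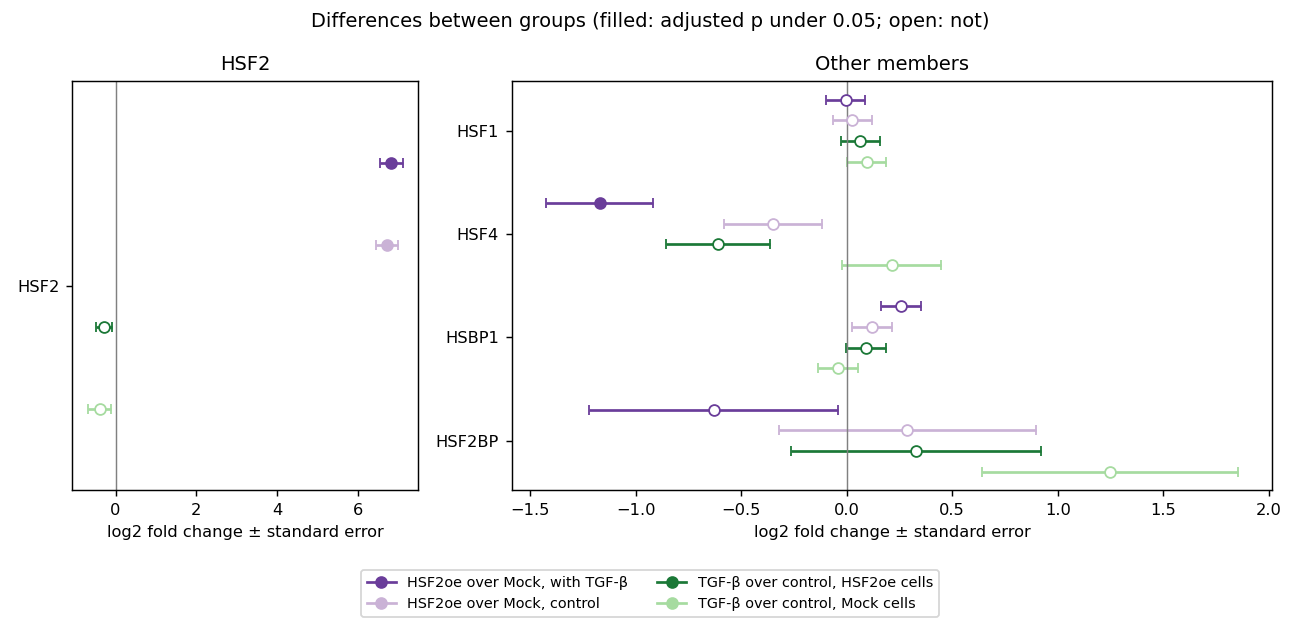
Log2 fold changes of the 5 genes in 4 comparisons, as points with standard errors, filled where the adjusted p is under 0.05 and open where it is not. HSF2 lies at 6.83 and 6.72 in HSF2oe over Mock, HSF4 at -1.17 is the one other filled point, and HSF2BP has the widest standard errors, 0.59 to 0.61.

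In HSF2oe over Mock with TGF-β, 2 of the 5 members were called, against 21.5% of all genes tested. Without TGF-β 1 of 5 was called, against 12.1% of all genes, and averaged over treatments 3 of 5, against 32.5%. TGF-β over control called 0 of 5 in HSF2oe cells, with 1 of 5 at an unadjusted p under 0.05, against 8.26% of all genes. It called 0 of 5 in Mock cells, with 0 at an unadjusted p under 0.05, against 13.8% of all genes (edgeR). Averaged over transfections it called 0 of 5, with 0 at an unadjusted p under 0.05, against 20.2% of all genes (10.1% higher). DESeq2 and limma also called 0 in all 3 comparisons. With 5 genes chosen by name, of which 1 was the transfected gene, these shares describe the set and no more.

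Scaled by exon length, the order of the factors turned over between the transfections. In HSF2oe cells HSF2 came first with 181 to 347 CPM per kb of exon, then HSF1 at 34.7 to 37.4, HSBP1 at 10.5 to 12.0, HSF4 at 0.453 to 0.792 and HSF2BP at 0.168 to 0.558, and of these ranges those of HSF4 and HSF2BP alone overlapped. In Mock cells HSF1 led with 33.1 to 37.6 CPM per kb, followed by HSBP1 at 9.92 to 10.6, HSF2 at 2.00 to 3.10, HSF4 at 0.871 to 1.30 and HSF2BP at 0.177 to 0.682. These 5 ranges did not overlap. Per length, HSF2 RNA was 4.85 to 8.23 times that of HSF1 in HSF2oe TGF-β libraries, against 0.0533 to 0.0607 times in Mock TGF-β libraries. Without TGF-β it was 6.58 to 10.0 times in HSF2oe libraries, against 0.0722 to 0.0883 times in Mock libraries. HSBP1 stood at 0.264 to 0.340 times HSF1 per length in all 8 libraries. Its ratio to HSF2 was 0.0304 to 0.0662 in HSF2oe libraries and 3.41 to 4.95 in Mock libraries. Lengths are those of all annotated exons (2697 bases for HSF2, 5305 for HSF1 and 9390 for HSBP1). They can exceed the lengths of the transcripts counted, and the ratios between genes depend on them. The HSF4 length includes the 27.1% of bases shared with RP11-5A19.5, whose part in the overlap with HSF2BP was not tested. The length of the plasmid transcript is not given in the sources used here, so the HSF2 level per length in HSF2oe cells is approximate.

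**Figure D3:**
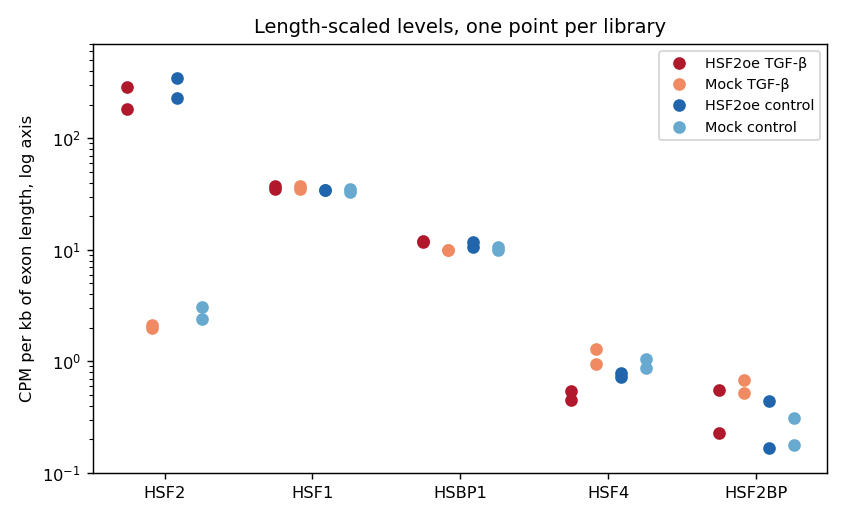
CPM per kb of annotated exon on a log axis for the 5 genes, with 1 point per library and colours for the 4 groups. HSF2 lies at 181 to 347 in HSF2oe libraries and at 2.00 to 3.10 in Mock libraries, on either side of HSF1 at 33.1 to 37.6.

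Other genes of the family were nearly silent. HSF5 and the X-linked HSFX1, HSFX2, HSFX3 and HSFX4 had at most 6 counts in any library and did not pass the low-count filter. HSBP1L1, a gene similar to HSBP1, had 1.03 and 0.938 CPM in HSF2oe TGF-β, 1.11 and 1.23 CPM in Mock TGF-β, 0.995 and 1.02 CPM in HSF2oe control and 1.46 and 0.879 CPM in Mock control libraries. Its differences of HSF2oe over Mock, -0.25 ± 0.41 with TGF-β and -0.20 ± 0.38 without it, did not pass (adjusted p = 0.718 and 0.789).

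By pattern over the 8 libraries, the genes most like HSF2 were KIF9, SNAPC1 and TXNIP, with Pearson r of 0.995, 0.994 and 0.993 in log2 CPM among 11676 genes compared. TXNIP, which encodes a thioredoxin-binding protein, had log2 CPM of 5.55 to 5.76 in HSF2oe libraries and 3.92 to 4.31 in Mock libraries, so such an r follows the split between the transfections. Most like HSF4 were JHY, LPIN3 and TMEM94 (r = 0.975, 0.969 and 0.958). Most like HSBP1 were AAMP, MRPL32 and MRGBP (r = 0.995, 0.988 and 0.979). Among those most like HSF1 were GLTP and ZNF786 (r = 0.946 and 0.930), and most like HSF2BP were AUP1, CNEP1R1 and PKNOX1 (r = 0.964, 0.937 and 0.918). These are the highest of all r values computed over 8 libraries of 4 groups, given as a description.

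The chaperone genes known to carry heat shock elements are the textbook targets of the family. With TGF-β, 17 of 38 rose in HSF2oe cells and 3 fell, against 9.6% and 11.9% of all genes. Without TGF-β 5 rose and 2 fell, against 4.88% and 7.22%. The median log2 fold change of the list was 0.31 with TGF-β and 0.14 without it, where that of all genes was -0.00 in both. The rises with TGF-β numbered 7 without Mock TGF-β library 2 and 9 without HSF2oe TGF-β library 1, and the falls 1 without either. The rises without TGF-β numbered 1 and 2 without HSF2oe control library 1 or 2, and 3 without either Mock control library; the falls numbered 1 without HSF2oe control library 1 or Mock control library 2. With library totals alone in place of TMM, 27 rose and 1 fell with TGF-β, and 11 rose without it; 8 rose without it with at least 10 counts in every library, and 4 fell with no filter. Over the list, summed levels ran from 13576 to 13696 CPM in HSF2oe TGF-β, 13307 to 13466 in Mock TGF-β, 12843 to 13570 in HSF2oe control and 12953 to 13268 in Mock control libraries.

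HSPA6, whose promoter is printed above, showed the largest difference in the list. It had 132 and 84 counts, or 4.11 and 3.58 CPM, in HSF2oe TGF-β libraries, against 15 and 15 counts, or 0.977 and 0.738 CPM, in Mock TGF-β libraries. Without TGF-β it had 2.41 and 3.19 CPM in HSF2oe libraries, against 0.862 and 0.624 CPM in Mock libraries. Every HSF2oe library lay above every Mock library, and HSF2oe over Mock gave 2.18 ± 0.33 with TGF-β and 1.93 ± 0.31 without it (adjusted p = 6.76e-04 and 0.00222).

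DNAJB4, a cochaperone of HSP70, rose by 0.70 ± 0.12 with TGF-β and 0.65 ± 0.12 without it (adjusted p = 0.00163 and 0.00488), the second call lost without HSF2oe control library 1 (adjusted p = 0.0545). HSP90AA1, the inducible cytosolic HSP90, rose by 0.56 ± 0.10 with TGF-β (adjusted p = 0.00214). SERPINH1, the collagen chaperone of the endoplasmic reticulum, went the other way. It had 1847 and 1923 CPM in HSF2oe TGF-β libraries, against 3594 and 3927 CPM in Mock TGF-β libraries, a log2 fold change of -0.996 ± 0.12 (adjusted p = 1.42e-04). In control medium it had 1256 and 1393 CPM in HSF2oe libraries, against 2208 and 2540 CPM in Mock libraries, or -0.84 ± 0.12 (adjusted p = 9.96e-04). CRYAB, a small heat shock protein, also fell without TGF-β (-0.64 ± 0.16, adjusted p = 0.0188), a call lost without HSF2oe control library 1 (-0.39, adjusted p = 0.21) or Mock control library 2 (adjusted p = 0.125).

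**Figure D4:**
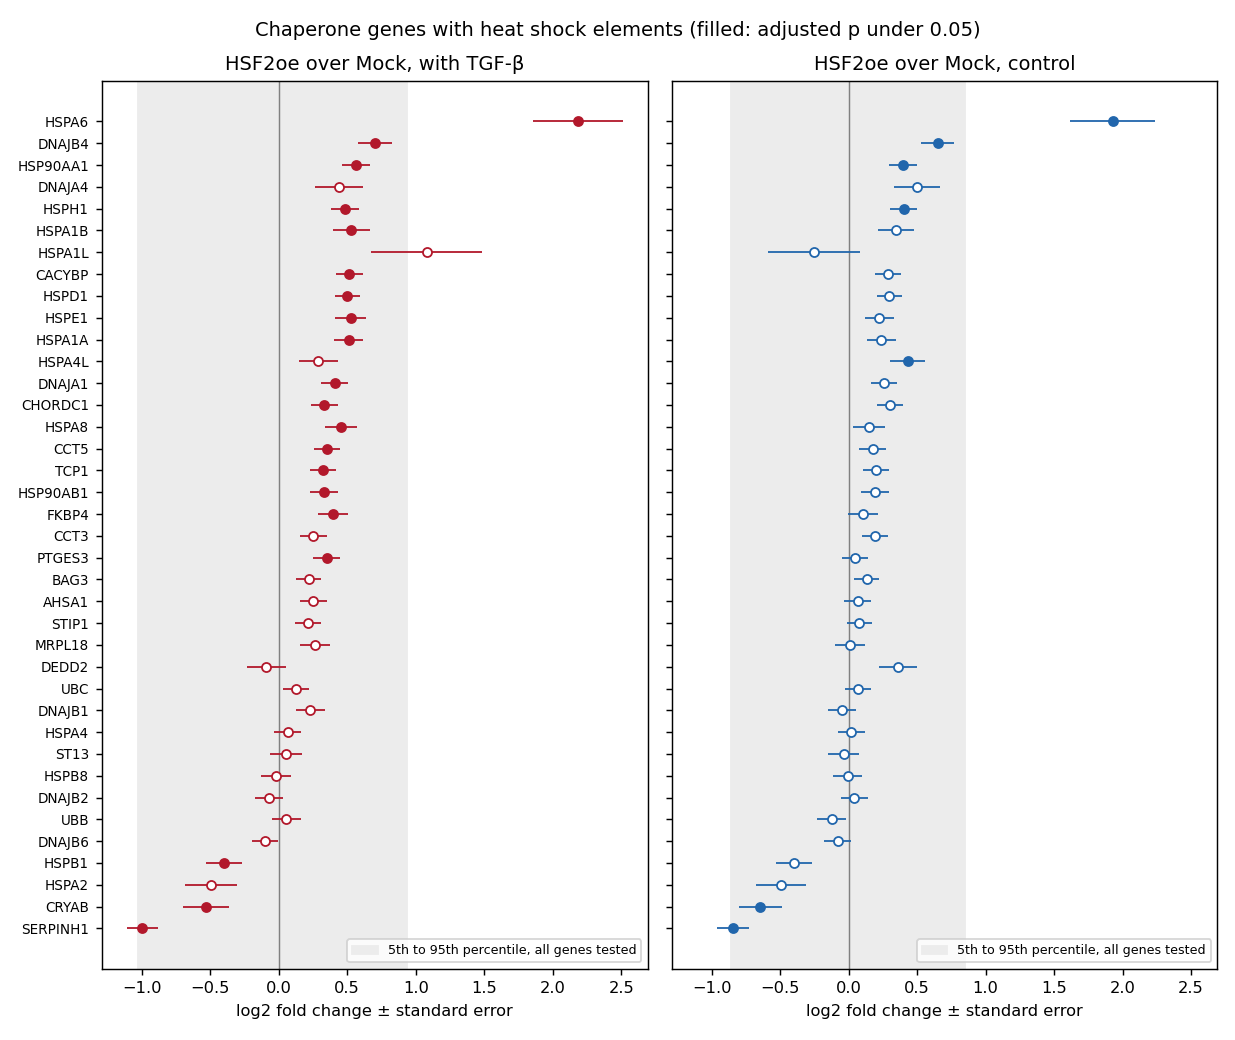
Log2 fold changes of HSF2oe over Mock for the 38 chaperone genes, with TGF-β on the left and without it on the right, as points with standard errors, filled where the adjusted p is under 0.05; the grey band spans the 5th to 95th percentile of all genes tested. HSPA6 at 2.18 and 1.93 lies outside the band in both panels, SERPINH1 is the lowest at -0.996 and -0.84, and 20 and 7 of the points are filled.

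The effect of TGF-β was compared in the same list. In HSF2oe cells 2 of 38 rose and 3 fell, against 4.45% and 3.82% of all genes, and in Mock cells 3 rose and 5 fell, against 7.32% and 6.5%. SERPINH1 rose by 0.51 ± 0.11 in HSF2oe cells and 0.66 ± 0.11 in Mock cells (adjusted p = 0.0136 and 0.00156), and HSP90AA1 fell by 0.46 ± 0.10 and 0.62 ± 0.10 (adjusted p = 0.0135 and 0.00112). In HSF2oe cells the rise of SERPINH1 was lost without HSF2oe control library 1 or HSF2oe TGF-β library 2 and with library totals alone (adjusted p = 0.0539), and the fall of HSP90AA1 without HSF2oe control library 2 or either HSF2oe TGF-β library. In Mock cells 1 rose and 2 fell without Mock control library 1, and 3 fell without Mock TGF-β library 2. In HSF2oe cells 0 rose without HSF2oe control library 1 or HSF2oe TGF-β library 2, 1 rose without HSF2oe control library 2, HSF2oe TGF-β library 1 or either Mock control library, and 1 fell without HSF2oe control library 2 or either HSF2oe TGF-β library. With library totals alone 0 rose in HSF2oe cells, and 1 rose and 24 fell in Mock cells. In HSF2oe cells 1 rose by limma on the deposited log2 values and with counts thinned to the lowest total.

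A further list held genes reported to modify or bind heat shock factors. Of 30 such genes, 8 rose and 0 fell in HSF2oe over Mock with TGF-β (edgeR; 11 in either direction at an unadjusted p under 0.05; 7 by DESeq2 and 9 by limma), against 9.6% and 11.9% of all genes. Without TGF-β 1 rose and 0 fell (2 in either direction at an unadjusted p under 0.05; DESeq2 and limma 1 each), against 4.88% and 7.22%. IER5, an immediate early gene whose product binds HSF1, had 54.8 and 42.5 CPM in HSF2oe TGF-β libraries, against 31.7 and 27.8 CPM in Mock TGF-β libraries. Without TGF-β it had 58.0 and 52.1 CPM in HSF2oe libraries, against 36.2 and 37.4 CPM in Mock libraries. HSF2oe over Mock gave 0.72 ± 0.13 and 0.58 ± 0.12 (adjusted p = 0.00187 and 0.00968), the second call lost without HSF2oe control library 1 or either Mock control library (adjusted p = 0.0507 to 0.11). SUMO2, a modifier attached to HSF1 and HSF2, rose by 0.47 ± 0.11 with TGF-β (adjusted p = 0.00663). CDC20, an activator of the ubiquitin ligase that acts on HSF2, and the mitotic kinase PLK1 rose by 0.52 ± 0.12 and 0.43 ± 0.12 with TGF-β (adjusted p = 0.00915 and 0.0229). Both calls were lost without Mock TGF-β library 2 (adjusted p = 0.122 and 0.234) or HSF2oe TGF-β library 1 (adjusted p = 0.0524 and 0.0985). The count of 8 was 5 and 2 without Mock TGF-β library 1 or 2, and 2 and 4 without HSF2oe TGF-β library 1 or 2; it was 18 with library totals alone and 5 with the compared libraries alone. TGF-β over control called 0 of these 30 genes in HSF2oe cells (2 at an unadjusted p under 0.05; DESeq2 and limma 0), against 8.26% of all genes, and lowered 5 in Mock cells, against 6.5% of all genes, a count of 0 without Mock control library 1 or Mock TGF-β library 2, 3 without Mock control library 2 and 2 without Mock TGF-β library 1. With library totals alone 3 fell in HSF2oe cells and 18 in Mock cells, and with the compared libraries alone 3 fell in Mock cells.

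The recombination partners of HSF2BP fell into a silent meiotic set and a set that dividing cells use. DMC1, SPATA22, MEIOB, SYCP1 and SYCP3, which act in meiosis, had at most 4 counts in any library and were not tested. BRME1, which binds HSF2BP in mouse meiosis, had 0.467 and 0.682 CPM in HSF2oe TGF-β, 0.586 and 0.148 CPM in Mock TGF-β, 0.931 and 0.651 CPM in HSF2oe control and 0.862 and 0.936 CPM in Mock control libraries. Of the 7 partners tested, BRME1 among them, 2 rose in HSF2oe over Mock with TGF-β and 0 without it (edgeR; 1 at an unadjusted p under 0.05; DESeq2 and limma 0), against 9.6% and 4.88% of all genes. With library totals alone 5 rose with TGF-β and 1 without it. The count without TGF-β was also 1 with no filter, with at least 10 counts in every library, with thinned counts and with the compared libraries alone. RPA2, a subunit of the protein that coats single-stranded DNA, had 45.6 and 43.5 CPM in HSF2oe TGF-β libraries, against 29.7 and 26.5 CPM in Mock TGF-β libraries. These groups did not overlap, and RPA2 rose by 0.67 ± 0.12 (adjusted p = 0.00167). TGF-β over control lowered 0 of the 7 in HSF2oe cells (0 at an unadjusted p under 0.05; DESeq2 and limma 0) and 4 in Mock cells, against 3.82% and 6.5% of all genes. The count of 4 was 0 without Mock control library 1 or Mock TGF-β library 2 and 2 without either of the other Mock libraries. The test of the difference between the TGF-β effects called none of the 7, against 0 of all 16008 genes tested (edgeR). That count therefore does not set the 7 apart from other genes. Among the 7, 1 had an unadjusted p under 0.05, and DESeq2 and limma called 0.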

How the data were processed

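Gene counts were the main data. The authors deposited counts of read pairs per gene made with featureCounts 2.0.1 on the GENCODE release 38 annotation with no strand option, per the file headers, so that antisense reads were not told apart. The submitters' processing notes name STAR 2.7.9a, Subread 2.0.1, edgeR 3.34.1 and GRCh38. The deposited log2 CPM table holds 13169 genes, 4 of the 5 members among them, and served as an alternative.

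Tests used edgeR 4.0.16 (R 4.3.3) on the deposited counts: a low-count filter (filterByExpr with the groups), TMM factors, 1 mean per group over all 8 libraries (common biological coefficient of variation 9.91%), quasi-likelihood tests, 2-sided, with Benjamini-Hochberg adjustment over 16008 genes and a threshold of 0.05. Standard errors restate the test, and 95% intervals use its degrees of freedom. The procedure was tested on simulated data. Within each group, chi-square per degree of freedom between both libraries was 12.5 to 26.8, so none is a duplicate.

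Named genes are the members, the 3 genes most correlated with each (mean log2 CPM of at least 1), the family list, and up to 4 list genes per comparison with the smallest p, of which some are given. Members, lists and rules were chosen with earlier results of these data known. A few genes that these rules select are not reported here.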

Additional observations from a re-analysis of the deposited data

How the results depend on the processing

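Of 566 values of the members under 17 other settings, 508 kept direction and side of the threshold, 10 lost a call, 10 gained one and 38 changed sign, all 38 uncalled throughout; the causes were not tested. HSF2 in HSF2oe over Mock was called in every setting. With library totals alone, which moved the median of all genes by 0.19 (HSF2oe over Mock with TGF-β), -0.27 (TGF-β in Mock cells) and -0.17 (TGF-β in HSF2oe cells), HSF1 gave 0.19, -0.17 and -0.10 in those comparisons, 0.0712 in the difference of TGF-β effects and -0.13 in averaged TGF-β. HSBP1 gave 0.45 (called), -0.31 (called), -0.069 and, for averaged TGF-β, -0.19. HSF4 gave -0.0467 for TGF-β in Mock cells, and HSF2 -0.56 for averaged TGF-β (called). HSF1 in HSF2oe over Mock with TGF-β was 0.0174 with no filter, 0.0108 with at least 10 counts in every library and 0.0058 with the libraries compared alone. HSBP1 there was called with at least 10 counts (0.27) and by limma (0.26). Averaged over treatments, HSBP1 was not called with no filter (0.20) or by DESeq2 (0.19). Averaged HSF2 under TGF-β was called with no filter (-0.35).

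Replicate numbers are not said to pair libraries, and their deviations correlated by 0.0498 to 0.163. With the replicate number as a block, HSBP1 in HSF2oe over Mock with TGF-β was 0.26 (called), HSF2 under TGF-β was -0.30 in HSF2oe cells and -0.33 averaged (both called). With the block, chaperone rises and falls without TGF-β in HSF2oe over Mock numbered 13 and 4, and under TGF-β 4 rose in HSF2oe cells, and 5 rose and 8 fell in Mock cells. Regulators then gave 1 fall with TGF-β and 2 rises without it in HSF2oe over Mock, and under TGF-β 2 falls in HSF2oe cells and 8 in Mock cells. HSF2BP partners gave 4 rises with TGF-β and 1 without it in HSF2oe over Mock.

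Leaving out 1 library each, HSF2oe over Mock ranged from -0.0165 to 0.0653 (HSF1) and -0.55 to 0.81 (HSF2BP) without TGF-β, and from -0.0528 to 0.0556 (HSF1) and -1.39 to -0.94 (HSF4) with it. Averaged, it ranged from -0.0151 to 0.0383 (HSF1), -0.58 to 0.10 (HSF2BP) and 0.16 to 0.23 (HSBP1). TGF-β over control ranged from -0.0161 to 0.43 (HSF4, Mock), -0.66 to 0.0497 (HSF2, HSF2oe), -0.41 to 1.18 (HSF2BP, HSF2oe), -0.53 to -0.17 (HSF2, averaged) and -0.0148 to 0.0627 (HSBP1, averaged). The difference of TGF-β effects ranged from -0.0754 to 0.0345 (HSF1) and -0.25 to 0.45 (HSF2). A group left with 1 library was assumed to vary like the others. Counts over all genes, lists and named list genes were added after seeing the data. With 2 libraries per group, changes of HSF2BP and HSF4 rest on few counts.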
